A study of Danio rerio with 24 samples.

Results

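Genes for the enzymes and proteins that write, read, erase and remodel chromatin were followed in early zebrafish embryos. They were chosen by name from a list of 54: histone acetyltransferases, bromodomain readers, deacetylases, Polycomb proteins, histone methyltransferases and demethylases, DNA methylation proteins, nucleosome remodellers, and proteins that shape chromosomes into loops. A gene was included when its symbol, ignoring case and a final copy letter, was on that list. All 54 names were found, and they stood for 63 of the 32520 gene identifiers in the deposited files. The symbol table often uses the human spelling in capitals, and gene copies can carry the same symbol, so such copies are told apart below by their Ensembl identifier.

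The embryos were wild type, of the TLAB strain, and whole embryos were used. There were 6 groups with 4 libraries each: oligomycin (1 µM) at 4 and at 3 hours post fertilization (hpf), actinomycin D (10 µg/ml) at 4 and at 3 hpf, and untreated embryos at 4 and at 3 hpf. Oligomycin is an inhibitor of mitochondrial ATP synthase. Actinomycin D binds DNA and stops RNA synthesis. Both agents were in the E3 medium from the time of laying according to the treatment protocol, but the design text calls the actinomycin D embryos injected, so the route of that agent is unsettled. The question of the design is whether embryos under oligomycin switch on zygotic genes, and actinomycin D gives the level seen when they cannot. The number of embryos per library and whether libraries of a group came from separate clutches are not given in the labels, so p-values measure the spread between these libraries, which may be technical.

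An early zebrafish embryo runs on RNA and protein laid down by the mother until its own genome is switched on around the midblastula transition, while maternal RNAs are cleared. Chromatin proteins set the terms of that switch: acetyltransferases and the bromodomain proteins that bind acetylated histones open genes for transcription, Polycomb proteins and DNA methylation keep others closed, and remodellers move nucleosomes. A message in this window can therefore be a maternal store, a newly made zygotic transcript or both. Read counts are shares of the sequenced RNA, so in whole embryos fewer cells of a type and less RNA per cell cannot be told apart.

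Library totals ran from 1453642 to 3431533 counts, with a median of 2675171. Levels are in CPM, which puts the counts of each library on 1 scale by its TMM-adjusted total. The summed level of 10 embryo markers was between 5550.1 and 6559.6 CPM in all 24 libraries, none of them at 0. Within that sum single markers differed with time in untreated embryos: nanog averaged 1649.2 CPM at 4 hpf and 925.5 CPM at 3 hpf, buc 913.7 and 1916.7 CPM, and DAZL 566.9 and 1273.3 CPM. Of 13 identifiers for markers of differentiated tissues, 9 or 10 were at 0 in every library of a group, depending on the group. The summed level of the 13 was 2.68 to 24 CPM in oligomycin, 0.933 to 3.86 CPM in actinomycin D and 54.8 to 193.5 CPM in untreated embryos at 4 hpf, and at most 3.89 CPM in any library at 3 hpf. The keratin gene krt4 averaged 119.6 CPM of it in untreated embryos at 4 hpf and 0.961 CPM at 3 hpf. At 4 hpf krt4 averaged 7.9 CPM in oligomycin and 1.11 CPM in actinomycin D. Its part in the results was not tested. The summed level of 16 zygotic check genes was 492.9 to 1699.0 CPM in oligomycin at 4 hpf and 2.61 to 3.26 CPM in actinomycin D replicates 1 to 3 at 4 hpf. In untreated embryos at 4 hpf it was 3058.2, 2801.1, 1749.7 and 1635.4 CPM. Actinomycin D replicate 4 at 4 hpf stood apart at 87.7 CPM. At 3 hpf the sum was 99.1 to 410.5 CPM in oligomycin, 1.99 to 4.27 CPM in actinomycin D and 192.5 to 751.6 CPM in untreated embryos. Replicates 1 and 2 of each group have library numbers from one series and replicates 3 and 4 from another, and untreated replicates 1 and 2 had the higher zygotic sums at each time. The part of this difference in the results was not tested.

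The chromatin genes that could be tested were present as maternal RNA. Of the 63 identifiers, 58 passed the filter on low counts and were tested. All 58 had counts in all 24 libraries, which the filter itself favours. In actinomycin D embryos at 3 hpf, where the zygotic check genes were near 0, the mean level of the 58 genes ranged from 3.57 to 961.4 CPM with a median of 181.3 CPM, and 44 were at 100 CPM or above. How many of all genes tested reached 100 CPM was not counted. The maintenance DNA methyltransferase DNMT1 was the gene at 961.4 CPM. The 5 identifiers below the filter were the demethylase kdm6bb (127 counts over all libraries), the methylcytosine oxidase tet3 (67 counts), SMARCA4 ENSDARG00000104339 (140 counts), RAD21 ENSDARG00000035655 (4 counts) and SMC1A ENSDARG00000055754 (5 counts). The other copies of SMARCA4, RAD21 and SMC1A were tested.

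At 3 hpf no chromatin gene was called between treatments. A call means an adjusted p under 0.05 in the quasi-likelihood test of edgeR, adjusted by Benjamini-Hochberg over 11238 genes. In actinomycin D against untreated embryos 0 of 58 were called, as were 0.427% of all genes tested. There 1 gene had an unadjusted p under 0.05: BRD2, a bromodomain protein that binds acetylated histones. None of the 58 was called in oligomycin against untreated embryos, where 0.0% of all genes were called and 0 of the 58 had an unadjusted p under 0.05. None was called in oligomycin against actinomycin D, where 0.151% of all genes were called and 6 of the 58 had an unadjusted p under 0.05. The shares of all genes at an unadjusted p under 0.05 were not counted, so these counts are not read as differences. DESeq2 also called 0 in each of these comparisons. In oligomycin 45 of 58 had a log2 fold change below 0 against untreated embryos, beside 5548 of all 11238 genes tested (median -0.11, all genes 0.0). Against actinomycin D 45 were below 0, beside 5234 of all genes (median -0.13, all genes 0.02). Both comparisons use the same oligomycin libraries, so the second is not an independent repeat of the first. Actinomycin D against untreated embryos had 18 below 0 (median 0.03), beside 5737 of all genes. Oligomycin replicate 3 had the lowest library total, 1453642 counts, and the lowest summed level of the members, 10060.2 CPM. The part of that library in these signs was not tested. BRD2 at 3 hpf had 205.4, 188.9, 233.0 and 244.9 CPM in actinomycin D and 385.1, 442.4, 272.4 and 254.1 CPM in untreated embryos. The actinomycin D libraries all lay below the untreated ones, and the log2 fold change of -0.63 had an edgeR adjusted p of 0.314. Within the first library series alone the value was -1.07 and BRD2 was called.

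In untreated embryos at 4 against 3 hpf 19 of 58 rose and 7 fell by edgeR, or 44.8% called, against 12.8% and 14.6% of all genes tested that rose and fell, or 27.4% called. Their median log2 fold change was 0.13, beside 0.0 over all genes tested. Genes of like level were not compared, so the larger share called is not read as a trait of chromatin genes. Remodellers held 8 of the 19 that rose, out of 14 tested, and chromosome loop proteins 3, out of 4 tested. The shares over all genes, 12.8% that rose and 14.6% that fell, stand beside each count by role below. The members that fell were DNMT1, HELLS, setdb1a, SMARCB1 ENSDARG00000033647, smarcc1b, CREBBP ENSDARG00000104609 and SUZ12 ENSDARG00000098924. With scaling to total counts alone, 11 rose and 7 fell. The count of 26 became 13 without untreated 4 hpf replicate 1 (7 rose, 6 fell), 16 without untreated 4 hpf replicate 2 and 16 without untreated 3 hpf replicate 1 (9 rose, 7 fell in each). Within the first library series 10 rose and 5 fell, and within the second 3 rose and 5 fell.

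Among the readers of acetylation, BRD2 rose furthest. It had 1024.7, 1010.2, 893.6 and 674.9 CPM in untreated embryos at 4 hpf and 385.1, 442.4, 272.4 and 254.1 CPM at 3 hpf. Every library at 4 hpf was above every library at 3 hpf, a 2.66-fold rise (log2 fold change 1.41, SE 0.2, edgeR adjusted p = 2.57e-05). The related reader brd3a also rose (0.56, SE 0.0986, edgeR adjusted p = 0.000185), whereas brd2b and brd3b were at 0.12 and 0.10 and did not pass the test.

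Of the loop architecture genes tested, 3 of 4 rose, beside 12.8% of all genes tested. The number was 2 without untreated 4 hpf replicate 1 or 2, or without untreated 3 hpf replicate 1 or 3. CTCF, the insulator protein that anchors loops, had 984.6, 964.4, 808.3 and 711.2 CPM at 4 hpf against 468.4, 472.9, 451.6 and 401.4 CPM at 3 hpf. The groups did not overlap, and CTCF rose 1.93-fold (log2 fold change 0.95, SE 0.115, edgeR adjusted p = 6.56e-06). The cohesin subunits rad21a and SMC1A ENSDARG00000058203 rose by 0.51 and 0.36 on the log2 scale (edgeR adjusted p = 0.00151 and 0.0226). SMC3, another cohesin subunit, was at 0.14 and did not pass.

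Of 14 remodeller genes tested, 8 rose and 3 fell, beside 12.8% and 14.6% of all genes tested. The 8 were the SWI/SNF ATPase SMARCA4 ENSDARG00000077226 (log2 fold change 0.43), its partners ARID1A ENSDARG00000101891 (0.50), SMARCC1 (0.35) and SMARCB1 ENSDARG00000011594 (0.43), the ISWI ATPase smarca5 (0.32), the NuRD ATPases chd4b (0.65) and CHD4 (0.30), and CHD7 (0.51). Leaving out 1 library at a time ended the call of CHD4 and of SMARCC1 in 19 of 24 fits each, and that of CHD7 in 17. The number of remodellers that rose was 1 to 7 over those 24 fits, 1 without untreated 4 hpf replicate 1 and 2 without untreated 3 hpf replicate 1, while 3 fell in each. The level of chd4b was 368.8, 362.4, 241.7 and 322.9 CPM at 4 hpf and 167.0, 247.1, 175.3 and 236.4 CPM at 3 hpf. One library at 4 hpf, replicate 3, lay within the range at 3 hpf (edgeR adjusted p = 0.00249).

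HELLS, a helicase of the SNF family that supports DNA methylation, had the lowest log2 fold change of the 58. It had 74.7, 96.6, 92.0 and 99.6 CPM at 4 hpf against 170.9, 189.8, 200.8 and 195.9 CPM at 3 hpf. The groups were wide apart (log2 fold change -1.06, SE 0.139, edgeR adjusted p = 1.21e-05). SMARCB1 ENSDARG00000033647, a core SWI/SNF subunit, had 52.3, 50.2, 59.6 and 55.8 CPM at 4 hpf and 104.0, 82.2, 91.8 and 99.6 CPM at 3 hpf. The scaffold subunit smarcc1b had 82.0, 86.5, 91.2 and 77.4 CPM at 4 hpf and 137.1, 124.1, 156.9 and 124.9 CPM at 3 hpf. Both fell without overlap, by 0.79 and 0.69 on the log2 scale (edgeR adjusted p = 0.000383 and 0.000551).

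Of 4 DNA methylation genes tested, 1 rose and 1 fell, beside 12.8% and 14.6% of all genes tested. DNMT1, which copies methylation onto new DNA strands, had 360.1, 381.9, 494.1 and 474.3 CPM at 4 hpf against 898.3, 757.9, 907.9 and 827.4 CPM at 3 hpf. All libraries at 4 hpf were below all at 3 hpf (log2 fold change -0.99, SE 0.121, edgeR adjusted p = 6.58e-06). UHRF1, which brings DNMT1 to hemimethylated DNA, rose (log2 fold change 0.45, SE 0.0954, edgeR adjusted p = 0.00107). The de novo methyltransferase copies DNMT3A ENSDARG00000005394 and DNMT3A ENSDARG00000015566 were at -0.31 and -0.13 and did not pass.

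Among histone methyltransferases 1 of 7 rose and 1 fell, beside 12.8% and 14.6% of all genes tested. The enzyme setdb1a, which deposits a repressive mark on histone tails, had 111.8, 73.4, 121.8 and 111.6 CPM at 4 hpf and 167.8, 141.1, 209.1 and 218.0 CPM at 3 hpf. It fell without overlap (log2 fold change -0.81, SE 0.225, edgeR adjusted p = 0.00953). The methyltransferase of transcribed gene bodies, setd2, rose by 0.41 (edgeR adjusted p = 0.0371), and 9 of 24 fits with 1 library left out ended that call. The trithorax genes kmt2a, kmt2ba and kmt2bb were between -0.36 and -0.12 and did not pass.

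Of 5 Polycomb genes tested, 1 rose and 1 fell, beside 12.8% and 14.6% of all genes tested. EZH2, the methyltransferase of the Polycomb repressive complex, rose by 0.59 (edgeR adjusted p = 0.0173), a call lost in 3 of 24 fits with a library left out. SUZ12 ENSDARG00000098924, a subunit of the same complex, had 78.2, 69.0, 84.2 and 81.2 CPM at 4 hpf and 95.4, 99.6, 106.9 and 106.2 CPM at 3 hpf. It fell without overlap (log2 fold change -0.38, SE 0.101, edgeR adjusted p = 0.00607). EED, RNF2 and SUZ12 ENSDARG00000070256 did not pass, with values between -0.09 and 0.11.

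Among acetyltransferases 1 of 11 rose and 1 fell, 9.09% each, beside 12.8% and 14.6% of all genes tested. KAT7 had 323.0, 354.9, 315.7 and 280.8 CPM at 4 hpf against 264.0, 238.8, 227.1 and 232.6 CPM at 3 hpf, and rose without overlap (log2 fold change 0.40, SE 0.108, edgeR adjusted p = 0.00698). CREBBP ENSDARG00000104609, a coactivator acetyltransferase, had 118.8, 127.3, 160.4 and 178.1 CPM at 4 hpf and 186.1, 229.7, 186.8 and 214.6 CPM at 3 hpf. It fell, also without overlap (log2 fold change -0.48, SE 0.148, edgeR adjusted p = 0.0178), and 1 of 24 fits with a library left out ended the call. Among the erasers, HDAC1 had 738.4, 666.6, 540.4 and 533.8 CPM at 4 hpf and 436.5, 497.8, 392.3 and 498.6 CPM at 3 hpf. KDM6B ENSDARG00000088087, which removes the Polycomb methyl mark, had 280.3, 239.5, 217.1 and 223.3 CPM at 4 hpf and 138.6, 210.3, 178.5 and 168.5 CPM at 3 hpf. Both rose without overlap, by 0.44 and 0.46 on the log2 scale (edgeR adjusted p = 0.00874 and 0.00671). The calls of HDAC1 and KDM6B were each lost in 2 of 24 fits with a library left out, and that of KAT7 in 1. KAT7, CREBBP ENSDARG00000104609, HDAC1 and KDM6B were not called within the second library series alone, nor was KAT7 within the first.

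**Figure D1:**
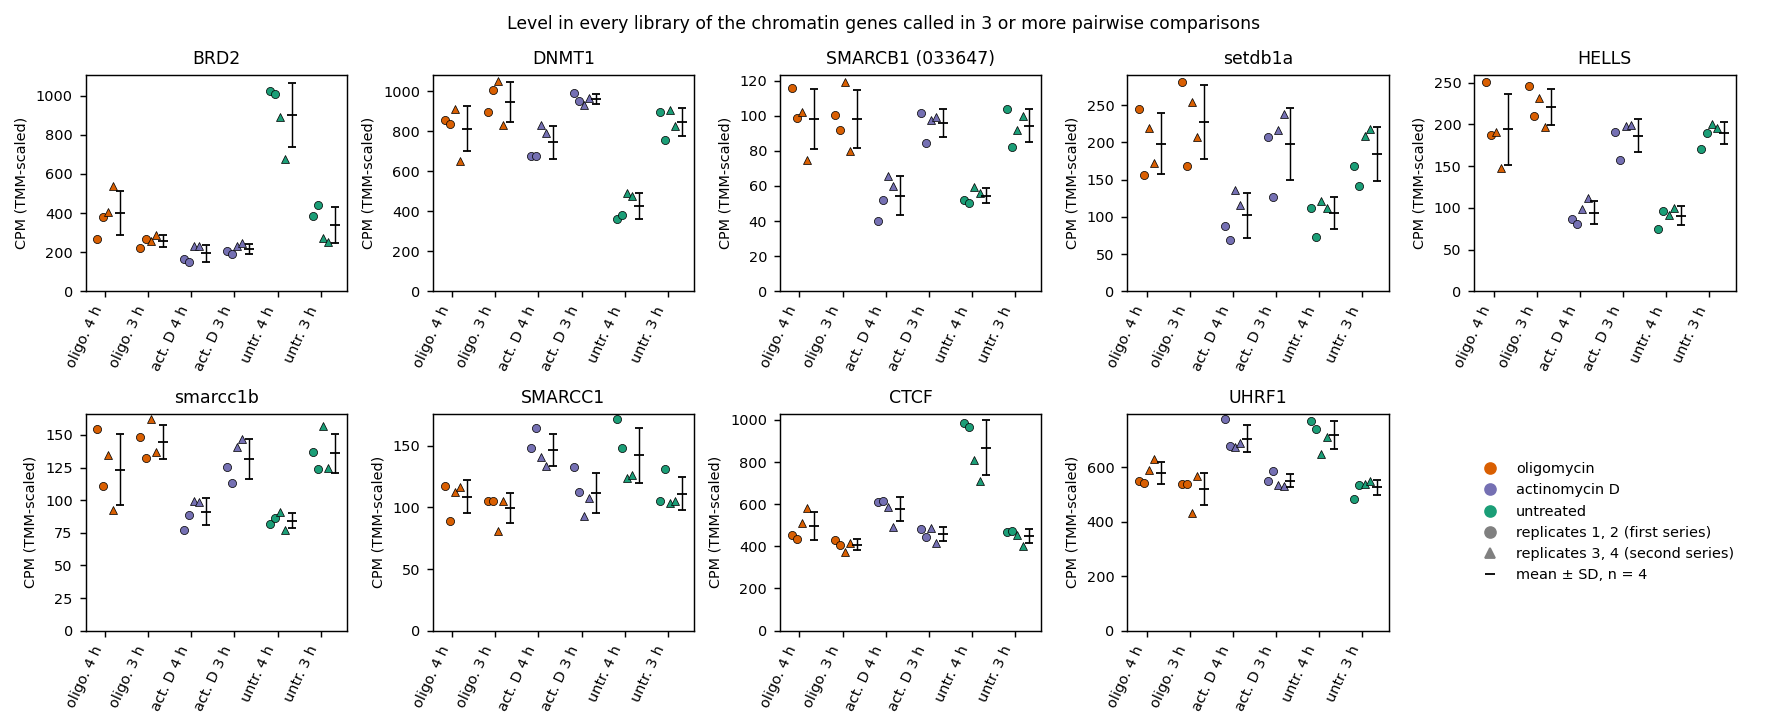
Level (CPM) in each library, by group, for the 9 genes called in at least 3 of the 9 pairwise comparisons. Circles are replicates 1 and 2, triangles are replicates 3 and 4, and the bars show the mean and SD of 4 libraries; BRD2 and CTCF stand highest in untreated embryos at 4 hpf, and HELLS, setdb1a, SMARCB1 and smarcc1b stand low at 4 hpf in actinomycin D and untreated embryos but not in oligomycin.

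With transcription blocked, 5 of the 7 falls and 1 of the 19 rises were called again by edgeR without a replicate block. Of the 19, 18 had a log2 fold change above 0 there, as had 42 of all 58 members and 6129 of all 11238 genes tested. The overlaps between the calls were not counted over all genes tested. In actinomycin D at 4 against 3 hpf 1 of 58 rose and 6 fell by edgeR, against 3.23% and 7.7% of all genes tested. The median log2 fold change of the members was 0.17, beside 0.04 over all genes. A fit with a replicate block for the library set, which was read as pairing these libraries, had 13 that rose and 6 that fell. A rise not called without the block is therefore not shown to be absent. Without actinomycin D 4 hpf replicate 2, or without actinomycin D 3 hpf replicate 4, 0 rose and 4 fell. Without actinomycin D 4 hpf replicate 4, whose zygotic check genes summed to 87.7 CPM, 5 rose and 5 fell. Within either library series alone 0 rose and 2 fell.

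Of the 7 genes that fell in untreated embryos, 5 also fell in actinomycin D: HELLS, setdb1a, SMARCB1 ENSDARG00000033647, smarcc1b and DNMT1. HELLS had 86.3, 80.8, 98.1 and 111.6 CPM at 4 hpf and 191.5, 157.2, 197.6 and 199.4 CPM at 3 hpf in actinomycin D. The 4 hpf libraries all lay below the 3 hpf ones (log2 fold change -0.98, SE 0.139, edgeR adjusted p = 0.000172). The level of setdb1a was 87.7, 68.3, 135.9 and 116.1 CPM at 4 hpf and 207.4, 127.3, 216.9 and 238.5 CPM at 3 hpf. Replicate 2 was the lowest library at both times, and the groups overlapped through replicate 3 at 4 hpf (log2 fold change -0.95, SE 0.225, edgeR adjusted p = 0.00894).

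SMARCB1 ENSDARG00000033647 had 40.1, 52.1, 65.9 and 60.0 CPM at 4 hpf and 101.7, 84.2, 97.6 and 99.4 CPM at 3 hpf in actinomycin D. The remaining SWI/SNF gene, smarcc1b, had 77.4, 88.6, 99.3 and 98.6 CPM at 4 hpf and 125.2, 112.8, 141.0 and 147.1 CPM at 3 hpf. Both fell without overlap, by 0.80 and 0.53 on the log2 scale (edgeR adjusted p = 0.00173 and 0.0131). DNMT1 had 676.6, 676.0, 832.8 and 791.9 CPM at 4 hpf and 992.8, 954.1, 929.7 and 968.9 CPM at 3 hpf. It fell without overlap by 0.37 (edgeR adjusted p = 0.0476), and 13 of 24 fits with a library left out ended that call. The deacetylase hdac3, a corepressor enzyme, fell in actinomycin D by 0.72 (edgeR adjusted p = 0.0155), and its value in untreated embryos was -0.27 (edgeR adjusted p = 0.298). A direct test of the difference between these changes called 0 of the 4 deacetylases. The hdac3 call in actinomycin D was lost in each library series alone and in 1 of 24 fits with a library left out.

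With the replicate block, which was read as pairing these libraries, more members were called higher with time in actinomycin D. Without it, UHRF1 was the 1 gene called there of the 19 that rose in untreated embryos (log2 fold change 0.35, edgeR adjusted p = 0.0174). This call was lost in 4 of 24 fits with a library left out. Its values are given because it was that 1 gene, a choice made after they were seen: 779.2, 679.6, 674.0 and 687.7 CPM at 4 hpf and 550.5, 587.5, 534.8 and 532.7 CPM at 3 hpf in actinomycin D. In untreated embryos it had 771.7, 739.3, 650.8 and 712.2 CPM at 4 hpf and 484.4, 534.2, 538.0 and 548.4 CPM at 3 hpf. In both actinomycin D and untreated embryos the 4 hpf libraries all lay above the 3 hpf ones, while in oligomycin they overlapped. In actinomycin D the log2 fold change was above 0 in 18 of the 19, and in 23 of the 32 members not called in untreated embryos. Over the 19 it had a median of 0.29 and a range from -0.17 to 0.40. BRD2 was the gene at -0.17. Examples of the rest were CTCF at 0.33, HDAC1 at 0.34, KAT7 at 0.29 and SMARCC1 at 0.40, which did not pass here but did under the replicate block. The log2 fold changes with time in actinomycin D and in untreated embryos, which share no library, correlated at 0.65 (Pearson) and 0.63 (Spearman) over the 58 genes, beside 0.55 and 0.59 over all 11238 genes tested. Genes are not independent replicates, all changes are relative to the total RNA of a library, and the libraries of the 2 changes were numbered in the same sets.

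**Figure D2:**
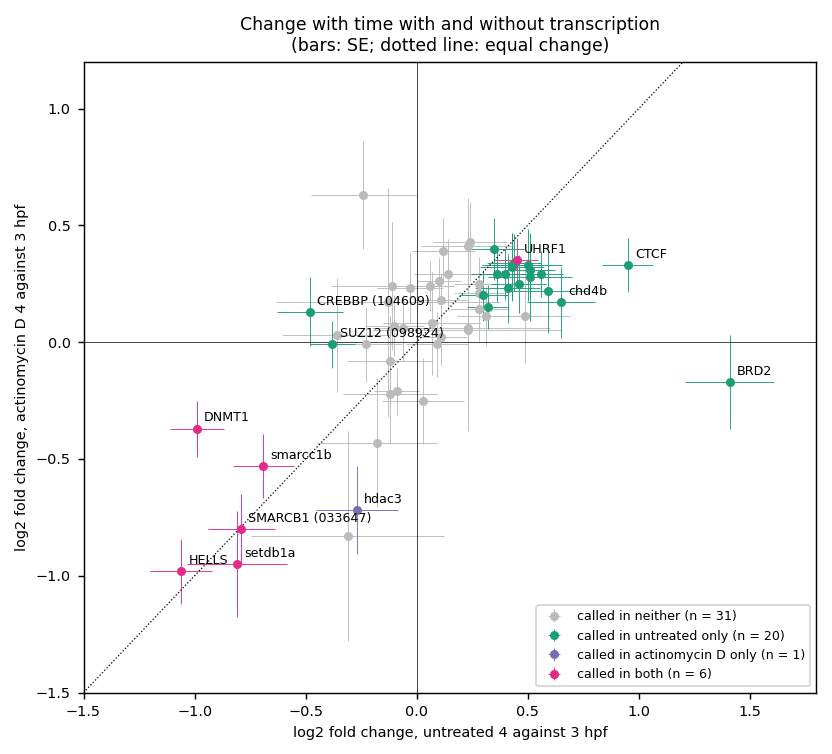
Log2 fold change at 4 against 3 hpf in untreated embryos (x axis) and in actinomycin D embryos (y axis) for the 58 chromatin genes tested, with SE bars, coloured by the edgeR call. The dotted line marks equal change. By the fit without a replicate block 6 genes were called in both, 20 in untreated embryos alone and 1 in actinomycin D alone. With the block more genes rose in actinomycin D. BRD2 lies at 1.41 and -0.17.

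Actinomycin D and untreated embryos were then compared directly at 4 hpf. In actinomycin D 4 of 58 were higher and 2 lower by edgeR, against 4.4% and 7.12% of all genes tested. The median log2 fold change was -0.02 for the members and 0.02 for all genes. BRD2 and CTCF were lower, and DNMT1, CREBBP ENSDARG00000104609, SUZ12 ENSDARG00000098924 and HDAC4 were higher. Within the second library series alone, BRD2 and DNMT1 were called.

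BRD2 had 165.5, 149.1, 230.6 and 230.2 CPM in actinomycin D at 4 hpf, against 1024.7, 1010.2, 893.6 and 674.9 CPM in untreated embryos. The groups did not come near each other, and the actinomycin D level was 4.63-fold lower (log2 fold change -2.21, SE 0.206, edgeR adjusted p = 2.09e-07). CTCF had 609.5, 613.9, 586.2 and 492.6 CPM in actinomycin D and 984.6, 964.4, 808.3 and 711.2 CPM in untreated embryos. The actinomycin D libraries were all below the untreated ones (log2 fold change -0.59, SE 0.114, edgeR adjusted p = 0.000516).

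DNMT1 was the reverse case, with 676.6, 676.0, 832.8 and 791.9 CPM in actinomycin D against 360.1, 381.9, 494.1 and 474.3 CPM in untreated embryos, again without overlap (log2 fold change 0.80, SE 0.121, edgeR adjusted p = 3.03e-05). CREBBP ENSDARG00000104609 had 211.7, 211.1, 237.4 and 217.5 CPM in actinomycin D and 118.8, 127.3, 160.4 and 178.1 CPM in untreated embryos (log2 fold change 0.58, SE 0.149, edgeR adjusted p = 0.00805). SUZ12 ENSDARG00000098924 had 100.3, 101.6, 96.2 and 110.2 CPM in actinomycin D and 78.2, 69.0, 84.2 and 81.2 CPM in untreated embryos (log2 fold change 0.38, SE 0.101, edgeR adjusted p = 0.0108). For both genes all actinomycin D libraries were above all untreated ones, and their change with time in actinomycin D was 0.13 and -0.01. HDAC4, a deacetylase with low counts here, had 32.2, 56.8, 33.7 and 42.5 CPM in actinomycin D and 15.5, 20.7, 28.3 and 26.7 CPM in untreated embryos. It was higher without overlap (log2 fold change 0.84, SE 0.233, edgeR adjusted p = 0.0166), and 2 of 24 fits with a library left out ended the call.

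In the other role groups no member was called, and the gene of smallest p is given for each. The trithorax methyltransferase gene kmt2ba had 250.4, 227.8, 317.8 and 271.9 CPM in actinomycin D and 179.2, 182.5, 197.6 and 244.5 CPM in untreated embryos. The groups overlapped through untreated replicate 4, and the log2 fold change of 0.41 had an edgeR adjusted p of 0.12, or 0.0408 with the replicate block. The demethylase kdm6al had 170.2, 232.4, 174.5 and 189.8 CPM in actinomycin D and 153.7, 171.8, 156.7 and 182.5 CPM in untreated embryos, which overlapped (0.20, edgeR adjusted p = 0.288). The remodeller chd4b had 266.7, 268.9, 247.0 and 251.9 CPM in actinomycin D and 368.8, 362.4, 241.7 and 322.9 CPM in untreated embryos. Untreated replicate 3 was the lowest of these 8 libraries (log2 fold change -0.32, edgeR adjusted p = 0.222).

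In a direct test of the difference between the changes with time, 0 of 58 were higher and 2 lower in actinomycin D than in untreated embryos, against 0.721% and 1.01% of all genes tested, or 1.73% in all. They were BRD2 (difference of log2 fold changes -1.58, SE 0.282, edgeR adjusted p = 0.00407) and CTCF (-0.62, SE 0.162, edgeR adjusted p = 0.0481). The difference of BRD2 was -1.62 in each library series, but BRD2 was not called in the second series alone. The call of BRD2 was kept in all 24 fits with a library left out. That of CTCF was lost in 20 of them, and the count fell to 1 without any of 19 libraries. DNMT1 was at 0.62 and did not pass (edgeR adjusted p = 0.0615, or 0.0198 with the replicate block).

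**Figure D3:**
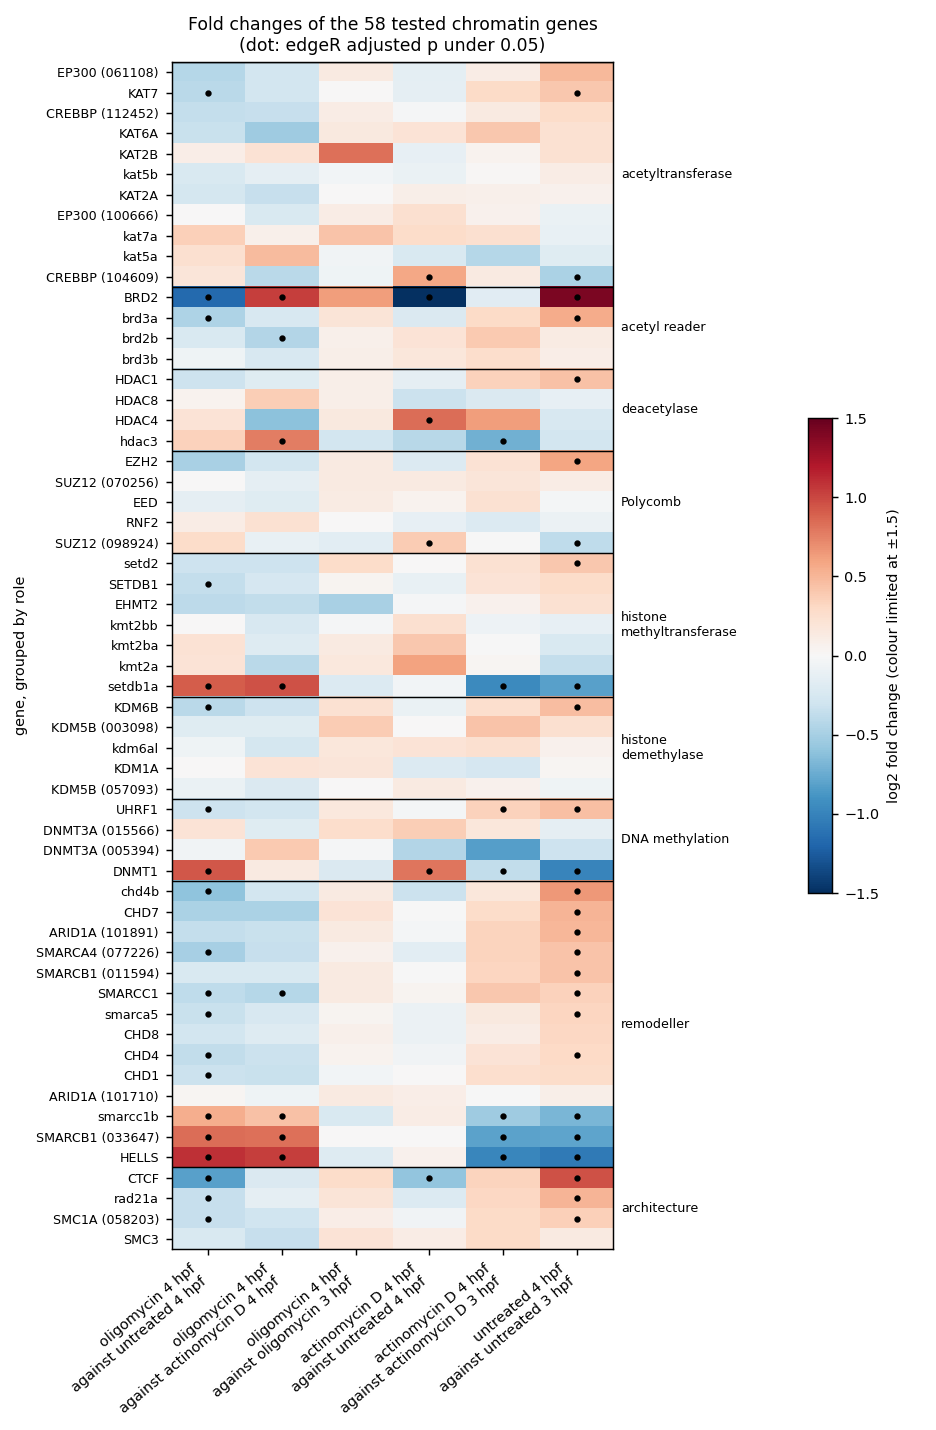
Log2 fold change (colour, limited to 1.5 in size) of the 58 chromatin genes, ordered by role, in 6 comparisons of time or treatment. A dot marks an edgeR adjusted p under 0.05. For a rise in untreated embryos the 14 remodeller genes hold 8 of the 19 dots and the 4 architecture genes 3. Of all genes tested 12.8% rose. Only 1 remodeller rose without untreated 4 hpf replicate 1. The oligomycin time column holds 0 dots.

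Under oligomycin no chromatin gene was called at 4 against 3 hpf, 0 of 58, against 0.516% of all genes tested. The median log2 fold change was 0.11 for the members and -0.02 for all genes, and the members ranged from -0.49 to 0.83. By edgeR 3 had an unadjusted p under 0.05, all upward: BRD2 (0.63), CTCF (0.28) and KDM5B ENSDARG00000003098 (0.38). The share of all genes at such a p was not counted, so these 3 are not read as changes. DESeq2 called 0, with 5 at an unadjusted p under 0.05. Without oligomycin 4 hpf replicate 1 the count was 1, which was BRD2. A p that misses the threshold does not show that levels did not change. The stage reached by the embryos at collection is not given in the labels, so treatment and developmental progress cannot be told apart.

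Set against untreated embryos at 4 hpf, oligomycin embryos had 5 of 58 higher and 15 lower by edgeR, against 12.3% and 9.05% of all genes tested. The median log2 fold change was -0.23 for the members and -0.04 for all genes. Here too genes of like level were not compared. With scaling to total counts alone, 6 were higher and 7 lower. Within the first library series 4 were higher and 17 lower, and within the second 2 were higher and 0 lower. The zygotic check genes summed to 492.9 to 979.2 CPM in oligomycin and 2801.1 to 3058.2 CPM in untreated embryos in the first series, and to 804.5 to 1699.0 and 1635.4 to 1749.7 CPM in the second. Without untreated 4 hpf replicate 1 or replicate 2 the calls were 5 higher and 5 lower, and without oligomycin 4 hpf replicate 2 they were 6 higher and 6 lower.

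The 5 higher genes were HELLS, DNMT1, setdb1a, SMARCB1 ENSDARG00000033647 and smarcc1b, the 5 that fell with time in both untreated and actinomycin D embryos. The oligomycin comparison uses the untreated 4 hpf libraries that the untreated change with time also uses, so these counts are not independent of each other. The same overlap was not counted over all genes tested. HELLS had 251.0, 187.4, 190.5 and 148.0 CPM in oligomycin against 74.7, 96.6, 92.0 and 99.6 CPM in untreated embryos. It was 2.14-fold higher without overlap (log2 fold change 1.10, SE 0.14, edgeR adjusted p = 1.9e-05), with 1.37 and 0.86 in the first and second library series.

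DNMT1 had 857.0, 834.8, 911.0 and 651.5 CPM in oligomycin and 360.1, 381.9, 494.1 and 474.3 CPM in untreated embryos. The oligomycin libraries were all higher (log2 fold change 0.93, SE 0.121, edgeR adjusted p = 2.14e-05). The level of setdb1a was 244.6, 155.7, 218.7 and 172.6 CPM in oligomycin and 111.8, 73.4, 121.8 and 111.6 CPM in untreated embryos. SMARCB1 ENSDARG00000033647 had 115.9, 98.8, 102.3 and 74.8 CPM in oligomycin and 52.3, 50.2, 59.6 and 55.8 CPM in untreated embryos. For smarcc1b the level was 154.8, 111.1, 134.7 and 92.8 CPM in oligomycin and 82.0, 86.5, 91.2 and 77.4 CPM in untreated embryos. None of these 3 overlapped between the groups, with log2 fold changes of 0.91, 0.84 and 0.55 (edgeR adjusted p = 0.00553, 0.000385 and 0.0055).

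The 15 lower genes included 13 of the 19 that rose with time in untreated embryos, a comparison that shares the untreated 4 hpf libraries. How many of all genes tested behaved this way was not counted. The others were the methyltransferase SETDB1 ENSDARG00000099021 (-0.36, edgeR adjusted p = 0.0245) and the remodeller CHD1 (-0.32, edgeR adjusted p = 0.0456). Of the 14 remodellers tested 6 were lower, and of the 4 architecture genes 3 were lower, beside 9.05% of all genes tested. Without untreated 4 hpf replicate 1 these counts were 1 and 1, and over the 24 fits with a library left out they ran from 1 to 7 and from 1 to 3. The call of CHD1 was lost in 15 of those fits, that of SMARCC1 in 10 and those of SMC1A and rad21a in 9 each. BRD2 had 265.9, 381.7, 407.0 and 540.4 CPM in oligomycin and 1024.7, 1010.2, 893.6 and 674.9 CPM in untreated embryos. The groups did not overlap (log2 fold change -1.17, SE 0.198, edgeR adjusted p = 0.000239), and the difference was -1.65 in the first library series and -0.68 in the second. BRD2 was not called in the second series alone.

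CTCF had 452.7, 434.9, 512.1 and 581.2 CPM in oligomycin and 984.6, 964.4, 808.3 and 711.2 CPM in untreated embryos. It was 1.75-fold lower without overlap (log2 fold change -0.81, SE 0.115, edgeR adjusted p = 4.23e-05). The remodeller chd4b had 198.5, 196.0, 193.3 and 267.2 CPM in oligomycin and 368.8, 362.4, 241.7 and 322.9 CPM in untreated embryos, where oligomycin replicate 4 was above untreated replicate 3 (-0.60, edgeR adjusted p = 0.00657). KAT7 had 239.8, 243.2, 247.6 and 227.0 CPM in oligomycin and 323.0, 354.9, 315.7 and 280.8 CPM in untreated embryos. KDM6B had 164.0, 157.3, 197.2 and 201.7 CPM in oligomycin and 280.3, 239.5, 217.1 and 223.3 CPM in untreated embryos. Both were lower by 0.41 without overlap (edgeR adjusted p = 0.0083 and 0.0191). The call of KDM6B was lost in 4 of 24 fits with a library left out and that of KAT7 in 1. With no filter on low counts neither was called, and with total-count scaling KDM6B was not.

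The deacetylase and Polycomb genes of smallest p did not pass. HDAC1 had 463.6, 533.6, 416.2 and 581.8 CPM in oligomycin and 738.4, 666.6, 540.4 and 533.8 CPM in untreated embryos, which overlapped (log2 fold change -0.31, edgeR adjusted p = 0.0692). SUZ12 ENSDARG00000098924 had 83.8, 91.3, 103.3 and 99.7 CPM in oligomycin and 78.2, 69.0, 84.2 and 81.2 CPM in untreated embryos. Oligomycin replicate 1 lay just below untreated replicate 3 (0.27, edgeR adjusted p = 0.055).

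In the direct test of the change with time, 2 of 58 were higher and 1 lower in oligomycin than in untreated embryos, against 0.81% and 0.214% of all genes tested, or 1.02% in all. HELLS and DNMT1 were higher, by 0.87 (SE 0.194) and 0.77 (SE 0.17), with an edgeR adjusted p of 0.0292 each. CTCF was lower by 0.67 (SE 0.162, edgeR adjusted p = 0.0422). The HELLS and DNMT1 calls were each lost in 7 of 24 fits with a library left out and the CTCF call in 16. The count was 0 without untreated 4 hpf replicate 1, oligomycin 4 hpf replicate 1 or 3, untreated 3 hpf replicate 3 or 4, or oligomycin 3 hpf replicate 4. It was 1 without untreated 4 hpf replicate 2 or oligomycin 3 hpf replicate 2.

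Set against actinomycin D at 4 hpf, oligomycin embryos had 6 of 58 higher and 2 lower by edgeR, against 9.79% and 2.14% of all genes tested. With scaling to total counts or by DESeq2 size factors, 6 were higher and 0 lower. The fit with the replicate block had 6 higher and 14 lower. If actinomycin D 4 hpf replicate 1 or 2, or oligomycin 4 hpf replicate 3, was left out, the calls were 5 higher and 0 lower. The 6 higher genes were BRD2 (log2 fold change 1.04), HELLS (1.04), setdb1a (0.95), SMARCB1 ENSDARG00000033647 (0.83), hdac3 (0.77) and smarcc1b (0.44).

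BRD2 had 265.9, 381.7, 407.0 and 540.4 CPM in oligomycin and 165.5, 149.1, 230.6 and 230.2 CPM in actinomycin D. All oligomycin libraries were above all actinomycin D libraries (SE 0.201, edgeR adjusted p = 0.00149). HELLS had 251.0, 187.4, 190.5 and 148.0 CPM in oligomycin and 86.3, 80.8, 98.1 and 111.6 CPM in actinomycin D, also without overlap (edgeR adjusted p = 3.9e-05). DNMT1, at 857.0, 834.8, 911.0 and 651.5 CPM in oligomycin and 676.6, 676.0, 832.8 and 791.9 CPM in actinomycin D, overlapped and was at 0.13 (edgeR adjusted p = 0.542). The lower genes were brd2b (-0.44) and SMARCC1 (-0.43), whose calls were lost in 17 and 6 of 24 fits with a library left out.

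Zebrafish carry many genes in duplicate from an ancient genome duplication, and 19 names on the list had a pair of identifiers, of which 15 pairs had both copies tested. At 4 against 3 hpf the copies of 2 pairs were called in opposite directions, 7 pairs had 1 copy called, 1 pair had both called the same way and 5 had neither called. Of all genes tested 12.8% rose and 14.6% fell. Gene pairs outside the list were not counted, so these counts are not read as a trait of chromatin genes. The opposite pairs were SMARCB1 ENSDARG00000011594 (0.43) with SMARCB1 ENSDARG00000033647 (-0.79), and SMARCC1 (0.35) with smarcc1b (-0.69). The calls of SMARCC1 and of CHD4 were lost in 19 of 24 fits with a library left out and that of SMARCB1 ENSDARG00000011594 in 5, so that 0 to 2 pairs were opposite and 0 or 1 had both copies called the same way over those fits. BRD2 was at 1.41 and brd2b at 0.12, while setdb1a was at -0.81 and SETDB1 at 0.28. CREBBP ENSDARG00000104609 was at -0.48 and CREBBP ENSDARG00000112452 at 0.28. The pair called the same way was chd4b (0.65) and CHD4 (0.30). The difference between copies was not tested, and reads of near-identical copies may be split between them by the counting.

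**Figure D4:**
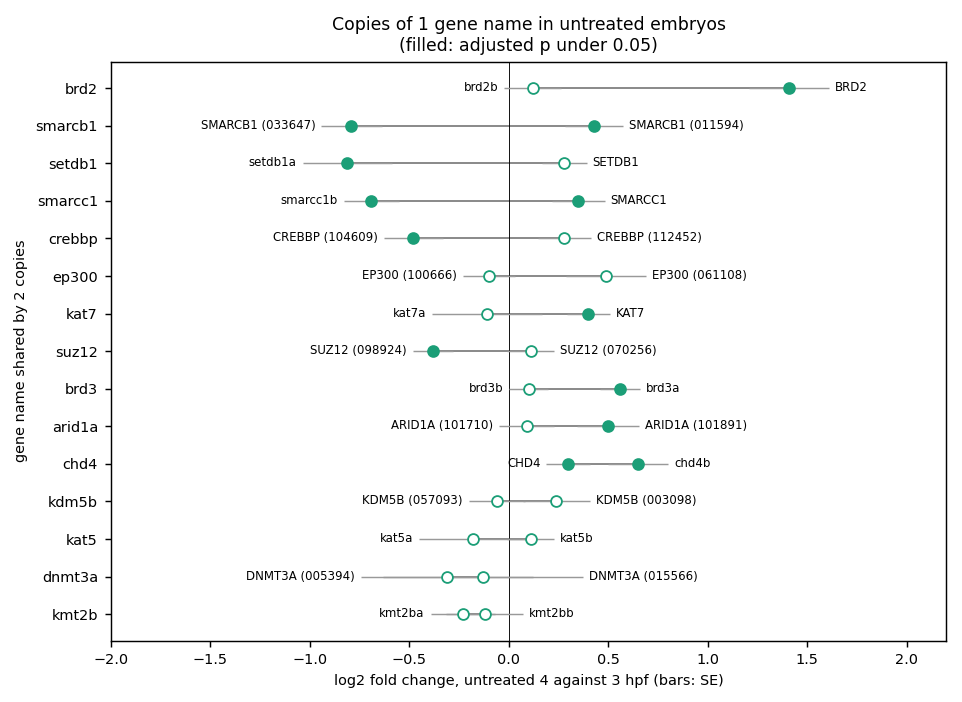
Log2 fold change at 4 against 3 hpf in untreated embryos for the 15 gene pairs with both copies tested, each pair joined by a line. Filled points passed edgeR at an adjusted p under 0.05; the copies of SMARCB1 lie at 0.43 and -0.79 and those of SMARCC1 at 0.35 and -0.69.

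A wider list of 170 other chromatin gene names matched 165 identifiers, of which 152 were tested. At 4 against 3 hpf in untreated embryos 33 rose and 20 fell by edgeR, or 17 and 30 with scaling to total counts. These 21.7% and 13.2% of the list stand beside 12.8% and 14.6% of all genes tested, and genes of like level were not compared. The count of 53 was 30 without untreated 4 hpf replicate 1 or replicate 2, 30 in the first library series and 12 in the second. The NuRD-type protein gene mbd3b had 81.8 ± 23.0 CPM at 4 hpf and 24.7 ± 3.68 CPM at 3 hpf (SD, n = 4 each; log2 fold change 1.72, edgeR adjusted p = 1.63e-05). The SWI/SNF subunit gene SMARCD1 also rose (0.53). The Polycomb genes BMI1 and PCGF1 fell, by 1.09 and 1.03 on the log2 scale. PCGF1 was at 29.5 ± 9.99 CPM at 4 hpf and 61.0 ± 7.29 CPM at 3 hpf (SD, n = 4 each).

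In actinomycin D against untreated embryos at 4 hpf 9 of the 152 were higher and 4 lower, or 16 and 6 with the replicate block. That is 5.92% and 2.63% of the list, beside 4.4% and 7.12% of all genes tested. The count of 13 was 1 in the second library series, 2 without untreated 4 hpf replicate 1, 6 without untreated 4 hpf replicate 2 and 8 without actinomycin D 4 hpf replicate 2 or 3. The gene mbd3b was at 19.4 ± 2.98 CPM in actinomycin D and 81.8 ± 23.0 CPM in untreated embryos (SD, n = 4 each; log2 fold change -2.07, edgeR adjusted p = 1.84e-06). The bromodomain gene BRD1 was lower (-1.27), and the Polycomb reader CBX8 (0.77) and the ISWI gene smarca1 (0.82) were higher. In oligomycin against untreated embryos at 4 hpf 12 were higher and 24 lower, or 19 and 10 with scaling to total counts. That is 7.89% and 15.8% of the list, beside 12.3% and 9.05% of all genes tested. The count of 36 was 1 in the second library series, and 16, 21 and 18 without untreated replicate 1, oligomycin replicate 1 and untreated replicate 2 at 4 hpf. PCGF1 and BMI1 were higher (1.18 and 1.07), and mbd3b and SMARCD1 were lower (-1.68 and -0.46).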

How the data were processed

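RNA of whole embryos was sequenced with the Lexogen QuantSeq kit, a method that reads transcripts from their 3′ ends. The kit is named in the labels' protocols. The files hold counts per gene deposited by the authors, with a gene and a read count column per the file headers, not normalized. The submitters' processing notes name Bowtie2 2.3.4.1, featureCounts of Subread 1.6.2 and the GRCz11 build. The annotation release, the use of strand and of molecular identifiers are not given in the sources used here. Symbols were matched for 29201 of 32520 identifiers. No sequence is shown here.

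edgeR 4.0.16 (R 4.3.3) was used: 11238 genes passed filterByExpr by group, scaling was by TMM, and 1 robust quasi-likelihood fit covered all 24 libraries with 1 mean per group. p-values were adjusted by Benjamini-Hochberg over all 11238 genes for each of 9 pairwise comparisons and 2 differences of change with time, and called at an adjusted p under 0.05. SE is the log2 fold change divided by the square root of the test's F value. Members and lists were chosen with earlier results of these data known. Values per library are given for the gene of smallest p in each role in 3 comparisons and for genes called in 4 or more pairwise comparisons, 16 genes in all, and for UHRF1, chosen after its values were seen. From the list of other chromatin genes, the 2 of smallest p per direction were named in the same 3 comparisons.

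Replicates are numbered in accession order. The title numbers form 4 sets of 6 adjacent libraries, with 1 library per group in each, and 2 series of 12; what they mark is not stated. In 7 of 9 comparisons, libraries of the same set deviated together from their groups (r above 0.1 in every pair), so the set was read as pairing those. Libraries of different sets in a series were not checked this way, so set and series cannot be told apart here. The pair of replicates 1 fell to 0.076 and 0.0 for oligomycin against untreated embryos at 4 and 3 hpf. Libraries of a group differed by more than counting noise (chi-square per gene 3.88 or more). Alternatives were DESeq2 1.42.0, its size factors, total-count scaling, no filter, the replicate block, each library series and leaving out each library. The fit was tested on simulated data for untreated embryos at 4 against 3 hpf (10845 genes), recovering 81% of changes of log2 size 1 and 100% of size 2, with 8 unchanged genes called. No smaller change and no effect of library set or series was simulated. These rates therefore do not cover the smaller changes called here.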

Additional observations from a re-analysis of the deposited data

Results flagged for a closer look

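Among 96 groups of 4 libraries (16 genes by 6 groups), 4 held a library far from the other 3 by Dixon's criterion, which chance gives in about 5% of groups. KDM6B was lowest in oligomycin 3 hpf replicate 3 at 122.7 CPM, and HELLS was lowest in actinomycin D 3 hpf replicate 2 at 157.2 CPM. In oligomycin at 4 hpf, kmt2ba was lowest in replicate 2 at 180.4 CPM and chd4b highest in replicate 4 at 267.2 CPM.

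The change with time differed between treated and untreated embryos by the edgeR test of that difference for BRD2 (-1.58) and CTCF (-0.62) in actinomycin D, and for DNMT1 (0.77), HELLS (0.87) and CTCF (-0.67) in oligomycin.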

How the results depend on the processing

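Across 11 comparisons 72 calls of chromatin genes were made. None changed sign under any alternative. All 72 were kept by DESeq2 and by the replicate block, 70 with DESeq2 size factors, 53 with total counts, 47 with no filter on low counts, 47 in the first library series and 16 in the second, where 12 libraries enter the fit. Of 1728 repeats of these calls with 1 library left out, 254 were lost. The number of genes called moved by more than 1.5 times as follows. For untreated embryos at 4 against 3 hpf (26), it was 15 and 8 in the first and second library series. For actinomycin D at 4 against 3 hpf (7), it was 12 with DESeq2, 19 with the replicate block and 2 in each series. For actinomycin D against untreated embryos it was 2 in the second series at 4 hpf (6) and 1 in the first at 3 hpf (0). For oligomycin against untreated embryos at 4 hpf (20), it was 13 with total counts, 10 with no filter and 2 in the second series. For oligomycin against actinomycin D at 4 hpf (8), it was 5 with no filter, 20 with the block and 2 in the second series. For the difference of change with time in actinomycin D (2), it was 1 with total counts, with no filter and in the first series alone, and 0 in the second alone. For that in oligomycin (3), it was 5 with the block and 0 in the second series. The cause of these shifts was not tested, beyond the smaller number of libraries in a series.

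Leaving out 1 library at a time gave 13 to 25 calls for untreated embryos, 4 to 10 for actinomycin D and 0 to 1 for oligomycin at 4 against 3 hpf. At 4 hpf it gave 5 to 8 for actinomycin D against untreated embryos, 10 to 25 for oligomycin against untreated embryos and 5 to 11 for oligomycin against actinomycin D. At 3 hpf it gave 0 in all 3 comparisons. The differences of change with time gave 1 to 3 for actinomycin D and 0 to 4 for oligomycin. Oligomycin against untreated embryos was not read as paired: the replicate block there gave 28 calls at 4 hpf (6 higher, 22 lower) and 0 at 3 hpf. Without actinomycin D 4 hpf replicate 4, actinomycin D had 5 higher and 5 lower with time, and 4 higher and 3 lower against untreated embryos at 4 hpf. The 5 identifiers below the filter on low counts gave no test at this depth.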
